A study of Canis lupus familiaris with 6 samples.

Results

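Osteoclasts are large multinucleated cells of the monocyte lineage that remove bone and, in implanted sites, can resorb ceramic bone substitutes. They seal off a patch of mineral, acidify it with a vacuolar proton pump in the ruffled border and digest the exposed collagen with secreted enzymes. The 7 genes described here cover that machinery. ACP5 encodes tartrate-resistant acid phosphatase and CTSK the collagen-cleaving protease cathepsin K. TCIRG1 encodes the a3 subunit of the proton pump and ATP6V0D2 its d2 subunit, which is also known for a role in cell fusion in mice. CALCR encodes the calcitonin receptor, OSCAR an immunoglobulin-like costimulatory receptor and DCSTAMP a membrane protein needed for precursor fusion in mice.

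The members were all probe sets annotated to 1 of the 7 symbols alone, which gave 11 of the 42860 probe sets of an Affymetrix canine array. They belong to 5 of the 7 genes, ACP5, CTSK, ATP6V0D2, TCIRG1 and CALCR. The platform annotation used here names no probe set for the 2 others, OSCAR and DCSTAMP, and they are not analysed here. The array's probe set names begin with Cfa or CfaAffx, and 5 members are of the Cfa type and 6 of the CfaAffx type. The types are given apart, because ACP5 and CTSK differ in sign between them.

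RNA came from cylinders of mandibular bone, 4.5 mm in diameter and 8 mm long, of beagle dogs that were 9 years old. Premolars had been extracted 3 months before holes were drilled in every animal's mandible. The 6 groups are beta-TCP at day 4, control at day 4, beta-TCP at day 7, control at day 7, beta-TCP at day 14 and control at day 14, with 1 array each. A beta-TCP site had a hole implanted with beta-tricalcium phosphate, a resorbable ceramic, and a control site had a hole left without it. The sources used here do not give the number of dogs, or which specimens shared a dog. No group is replicated, so differences between 2 arrays carry no error and no test, and no neighbours in an order of levels can be told from chance variation. A specimen is a mixture of cells, so fewer osteoclasts and less RNA per osteoclast cannot be told apart. A level is the deposited value divided by the array's own median over all probe sets, called array medians below. A difference is on the log2(level + 1) scale, beta-TCP minus control, and at least 2-fold means at least 1 on that scale.

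The beta-TCP day 14 array stood apart from the others, and far more so on CfaAffx probe sets. Its Spearman correlations with the other 5 arrays ran from 0.805 to 0.877 on Cfa probe sets, where the others correlated at 0.878 to 0.940. On CfaAffx probe sets they ran from 0.609 to 0.649, against 0.767 to 0.859. The deposited day 14 values are also on another scale than those of days 4 and 7, so in a difference from an earlier day the time and the scale cannot be told apart.

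On their Cfa probe sets ACP5, CTSK, TCIRG1 and ATP6V0D2 lay in the upper part of every array, and the calcitonin receptor gene did not. The Cfa probe set of CTSK lay at or above the 99.6th percentile on all 6 arrays, and the brighter TCIRG1 probe set between the 98.1st and 99.6th. ACP5 on its Cfa probe set lay at the 92.7th percentile at beta-TCP day 4 and the 90.5th at control day 4, and at the 99.1st and 99.6th at day 7. ATP6V0D2 on Cfa lay between the 92.4th and 98.6th percentile. CfaAffx probe sets reached lower, with ACP5 at the 83.6th percentile at control day 4 and the second ATP6V0D2 probe set at the 70.8th at control day 14. CALCR, on its single CfaAffx probe set, lay below the array median on every array. Its highest level was 0.713 array medians, at control day 7. With 1 of the defining osteoclast markers that low and 2 without a probe set, the osteoclast label rests on ACP5, CTSK, TCIRG1 and ATP6V0D2, which macrophages or fibroblasts can also express. Of the 11 probe sets 9 passed the filter on low values, and CALCR and 1 of ATP6V0D2 did not.

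**Figure D1:**
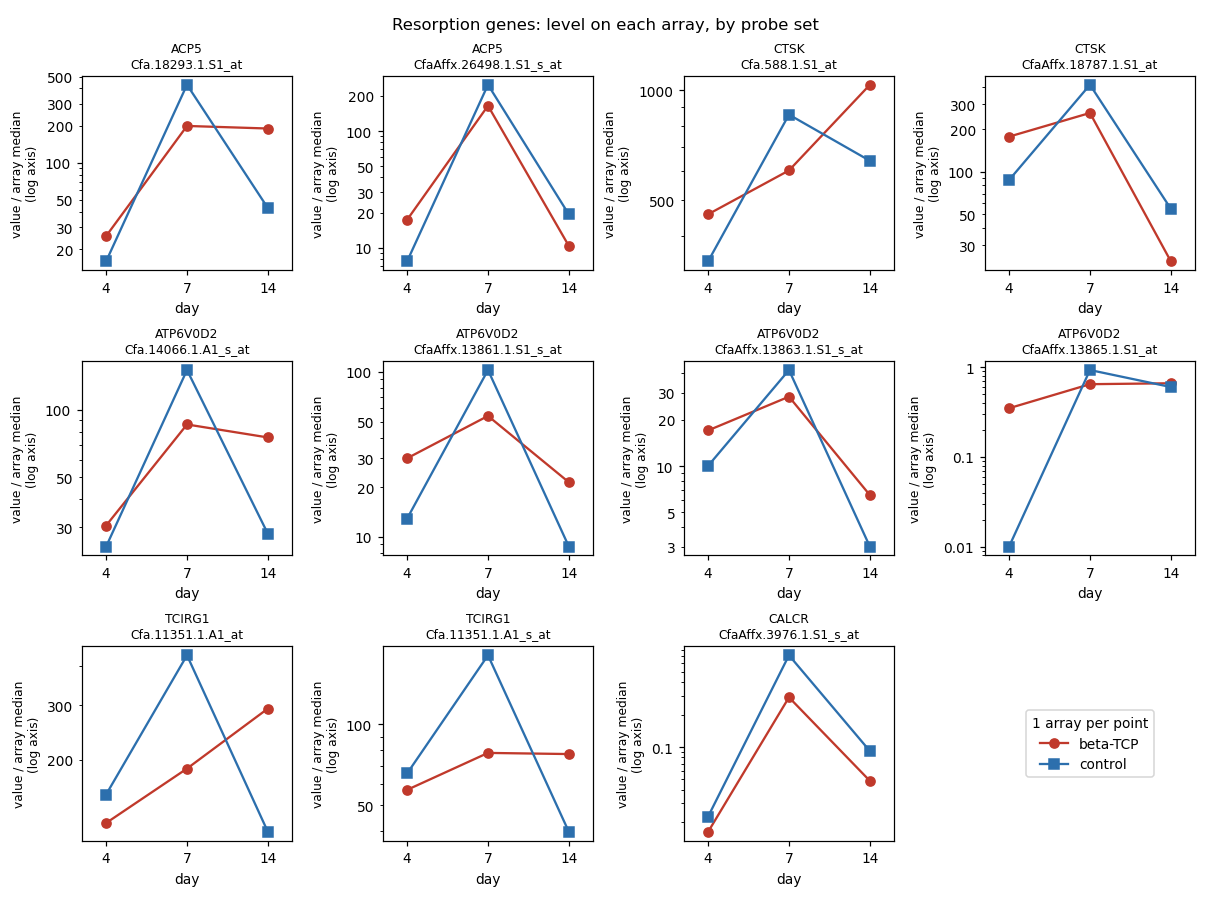
Level of each of the 11 member probe sets (array medians, log axis with its own range in each panel) on days 4, 7 and 14, with 1 array per point, beta-TCP as red circles and control as blue squares. In 10 of 11 panels the highest point is control day 7, and the exception is CTSK on its Cfa probe set, highest at beta-TCP day 14.

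The phosphatase gene ACP5 had the widest range of the members. On its Cfa probe set it read 25.5 array medians at beta-TCP day 4 against 15.9 at control day 4, 199 at beta-TCP day 7 against 429 at control day 7, and 189.6 at beta-TCP day 14 against 42.9 at control day 14. Levels were lowest at day 4 in both kinds of site, and at day 14 the beta-TCP site stayed near its day 7 level while the control site stood far below its own. The ratio of levels, day 7 over day 4, was 7.80 in beta-TCP sites and 27.0 in control sites. The ratio of day 14 over day 7 was 0.953 in beta-TCP sites and 0.100 in control sites.

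The CfaAffx probe set of ACP5 read 17.3 array medians at beta-TCP day 4 against 7.64 at control day 4. It read 165 at beta-TCP day 7 against 249 at control day 7, and 10.3 at beta-TCP day 14 against 19.3 at control day 14. Both probe sets therefore placed beta-TCP above control at day 4 and below it at day 7, and they parted at day 14. The day 14 over day 7 ratio on this probe set was 0.0628 in beta-TCP sites and 0.0774 in control sites.

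The protease gene CTSK varied less. Its Cfa probe set read 458 array medians at beta-TCP day 4 against 340.2 at control day 4, 603 at beta-TCP day 7 against 857 at control day 7, and 1035 at beta-TCP day 14 against 641 at control day 14. In beta-TCP sites the level was higher at each later day, whereas in control sites day 7 was the highest. The CfaAffx probe set read 177 against 87.3 at day 4, 261 against 414 at day 7 and 23.1 against 54.5 at day 14, beta-TCP against control. At day 14 the probe sets thus gave opposite orders for CTSK too.

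The pump subunit gene ATP6V0D2 kept its order on every probe set past the filter. Its Cfa probe set read 30.5 array medians at beta-TCP day 4 against 24.5 at control day 4, 86.1 at beta-TCP day 7 against 151 at control day 7, and 75.4 at beta-TCP day 14 against 28.0 at control day 14. The brightest CfaAffx probe set read 29.9 against 12.9, 54.1 against 103, and 21.4 against 8.73 on the same days, beta-TCP against control. A second one read 17.0 against 10.04, 28.2 against 42.1, and 6.48 against 3.00. On all 3 the beta-TCP site was the higher one at days 4 and 14 and the lower one at day 7. The third CfaAffx probe set stayed below the array median on all arrays, with a highest level of 0.929 at control day 7, and at control day 4 it is listed at the lowest deposited value, 0.01, so no fold is given.

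The other pump subunit gene, TCIRG1, was measured by 2 Cfa probe sets, whose names share their stem, so they are not independent. The brighter one read 125 array medians at beta-TCP day 4 against 155 at control day 4, 187.5 at beta-TCP day 7 against 434 at control day 7, and 293 at beta-TCP day 14 against 117 at control day 14. The other read 57.0 against 65.6, 78.3 against 181, and 77.5 against 39.7. TCIRG1 was the one strongly read member that was not higher with beta-TCP at day 4. CALCR read 0.0162 array medians at beta-TCP day 4 against 0.0225 at control day 4, 0.290 at beta-TCP day 7 against 0.713 at control day 7, and 0.0484 at beta-TCP day 14 against 0.0917 at control day 14. These values lie below the array median throughout, and its level at day 7 was above those at days 4 and 14 in both kinds of site.

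**Figure D2:**
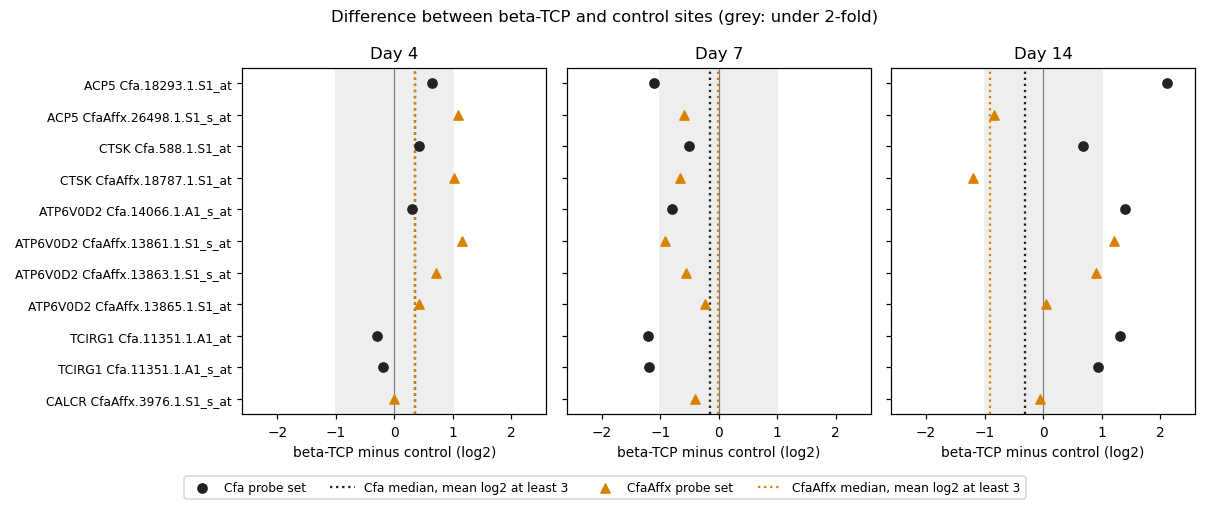
Difference beta-TCP minus control (log2 of level + 1) for the 11 member probe sets on each day, Cfa as black circles and CfaAffx as orange triangles, with 1 array per group. The grey band holds differences under 2-fold and dotted lines give the median of all probe sets of each type with a mean log2 of at least 3. All 11 points lie left of 0 at day 7, and at day 14 the 5 Cfa points lie right of 0 while the CfaAffx points run from -1.20 to 1.20.

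The question at day 4 was whether the implanted site already differed in resorption genes. With beta-TCP, 8 of 11 member probe sets were higher and 3 lower, with a median of 0.43. Of these, 3 were at least 2-fold higher, where 2.66% of all 42860 probe sets were, and none was 2-fold lower (2.07%). All 3 were CfaAffx probe sets, of ATP6V0D2 (1.16), ACP5 (1.09) and CTSK (1.01). Strongly read probe sets as a whole were also shifted that day. Among the 7908 with a mean log2 of at least 3 the median difference was 0.35 and 7.94% were at least 2-fold higher. On Cfa probe sets the differences ran from -0.30 (TCIRG1) to 0.65 (ACP5), none of them 2-fold, around the Cfa median of 0.35 at that level. Markers of other cell types also differed at day 4. Markers of stratified epithelium summed to 3.78 array medians at beta-TCP day 4 against 47.8 at control day 4, with 4 of the 5 past the filter at least 2-fold lower. Endothelial markers summed to 131 against 61.7, with a median difference of 0.83. Of these, 4 were higher and 1 lower, CDH5 (-1.10). Fibroblast markers summed to 1561 against 968, with a median of 0.70. Their part in the members' differences was not tested.

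At day 7 every member was lower with beta-TCP, on both types of probe set. The median over the 11 probe sets was -0.66, and the smallest difference in size was -0.23. The 3 that were at least 2-fold lower were TCIRG1 (-1.21 and -1.20 on its 2 probe sets) and ACP5 on Cfa (-1.10), where 1.97% of all probe sets were at least 2-fold lower. ATP6V0D2 differed by -0.80 on Cfa and by -0.91 and -0.56 on CfaAffx, CTSK by -0.51 on Cfa and -0.66 on CfaAffx, and ACP5 on CfaAffx by -0.59. Among strongly read probe sets 4.81% were at least 2-fold lower and the median was -0.11. Of the Cfa probe sets at that level, 2.9% lay below the brighter TCIRG1 probe set and 3.8% below ACP5. Both probe set types gave the same sign on this day for every gene they share, and neither day 7 array stood apart.

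At day 14 the sign depended on the probe set type for 2 genes. All 5 Cfa probe sets were higher with beta-TCP, ACP5 by 2.12, ATP6V0D2 by 1.40, TCIRG1 by 1.31 and 0.95 and CTSK by 0.69. At least 2-fold higher were 3 of the 5, where 4.28% of all Cfa probe sets and 2.3% of the strongly read ones were, and the median of the strongly read ones was -0.31. Of the 6 CfaAffx probe sets 1 was at least 2-fold higher (ATP6V0D2, 1.20), where 3.31% of all CfaAffx probe sets were, and 1 at least 2-fold lower (CTSK, -1.20), where 11.1% were. ACP5 lay at -0.84 and the second ATP6V0D2 probe set at 0.90. Strongly read CfaAffx probe sets as a whole had a median of -0.91, with 45.3% at least 2-fold lower and 2.11% at least 2-fold higher. Relative to that type's strongly read probe sets, ACP5 on CfaAffx lay above 52.9% of them, CTSK above 35.4% and ATP6V0D2 above 98.4%. All day 14 differences rest on the array that stood apart, and there is no second array to give them without it.

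**Figure D3:**
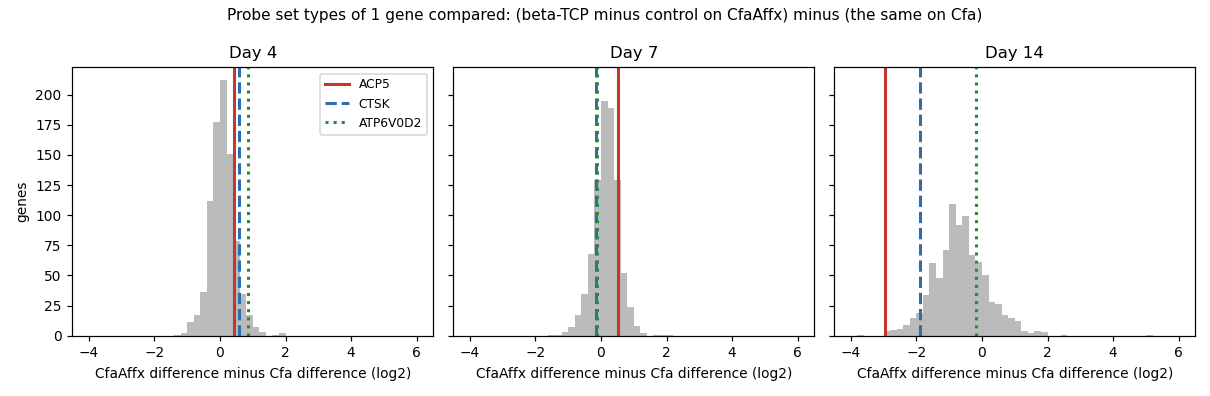
For genes with a Cfa and a CfaAffx probe set of mean log2 at least 3, the beta-TCP minus control difference on CfaAffx minus that on Cfa (log2, horizontal axis) against the number of genes in bins of 0.2 on each day, with 1 array per group. Lines mark ACP5 (red), CTSK (blue, dashed) and ATP6V0D2 (green, dotted). At day 14 the 863 genes centre on -0.67, ACP5 lies at the far left at -2.96 and ATP6V0D2 at -0.19.

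The disagreement between types was compared with that of other genes. For 863 genes with a strongly read probe set of each type, the CfaAffx difference minus the Cfa difference had a median of 0.07 at day 4, 0.18 at day 7 and -0.67 at day 14. At day 14 the middle 80% of genes spanned -1.63 to 0.39, against -0.36 to 0.52 at day 4 and -0.32 to 0.61 at day 7. ACP5 lay at -2.96 at day 14, with 0.232% of the genes below it, and CTSK at -1.89, with 5.68% below. ATP6V0D2 lay at -0.19, above 74.6% of the genes. Opposite signs on the types were found for 222 of the 863 genes (25.7%) at day 14, for 250 (29.0%) at day 7 and for 113 (13.1%) at day 4. The part that probe set design played in this was not tested.

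The next question was how the genes moved between days. In control sites every member probe set had its highest value at day 7, where 32.5% of all probe sets and 36.3% of the strongly read ones had theirs. In beta-TCP sites 8 of 11 did, against 29.7% and 35.4%. The exceptions were CTSK on Cfa, the brighter TCIRG1 probe set and the dim ATP6V0D2 probe set, all highest at day 14. From day 4 to day 7, 9 of 11 probe sets were at least 2-fold higher in control sites (8.4% of all probe sets and 25.3% of the strongly read ones). In beta-TCP sites 3 of 11 were (2.98% of all and 6.46% of the strongly read ones), ACP5 on both types (2.92 on Cfa and 3.18 on CfaAffx) and ATP6V0D2 on Cfa (1.47). In control sites ACP5 differed by 4.67 and 4.86, ATP6V0D2 by 1.97 to 2.90 on its 3 brighter probe sets, CTSK by 1.33 and 2.23 and TCIRG1 by 1.48 and 1.45. ACP5 lay above 99.8% to 100% of the strongly read probe sets of its type in both kinds of site. From day 7 to day 14, 8 of 11 were at least 2-fold lower in control sites (4.23% of all and 7.93% of the strongly read), on both types, led by ACP5 (-3.29 on Cfa and -3.62 on CfaAffx). In beta-TCP sites 4 of 11 were at least 2-fold lower (12.1% of all and 23.3% of the strongly read), all on CfaAffx. None of the Cfa probe sets was, and they lay between -0.19 (ATP6V0D2) and 0.78 (CTSK). Strongly read CfaAffx probe sets had a median of -0.94 for that difference, and Cfa ones -0.18. Of those CfaAffx probe sets 0.891% lay below ACP5, 1.78% below CTSK, and 35.9% and 16.6% below the brightest and the second of ATP6V0D2. Between days 4 and 14 control sites had 2 probe sets at least 2-fold higher (9.37% of all), both of ACP5, and 1 at least 2-fold lower (6.1%). Beta-TCP sites had 4 at least 2-fold higher (6.68%), all Cfa, and 2 at least 2-fold lower (13.1%), both CfaAffx. Strongly read CfaAffx probe sets had a median of -0.97 there, and Cfa ones 0.03. Of those CfaAffx probe sets 7.97% lay below CTSK and 40.7% below the second of ATP6V0D2.

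Averages over days or treatments were tested with limma, in a model with additive terms for day and treatment over the 6 arrays (adjusted by Benjamini-Hochberg over 25608 probe sets). For beta-TCP averaged over the 3 days, none of the 9 member probe sets past the filter was called, none had an unadjusted p under 0.05, and 0% of all probe sets were called. The estimates ran from -0.28 to 0.55 with standard errors of 0.33 to 0.53. The signs on single days differ, and such differences enter the residual. Day 7 minus day 4, averaged over treatments, was 4.02 ± 0.50 for ACP5 on CfaAffx (SE, limma adjusted p = 0.089) and 3.79 ± 0.65 on Cfa (adjusted p = 0.114). No member was called for any pair of days, although 6 of 9 had an unadjusted p under 0.05 between days 4 and 7, 6 between days 7 and 14 and 4 between days 4 and 14. Of all 25608 probe sets, 2814, 2627 and 5559 had an unadjusted p under 0.05 for those 3 pairs of days. After adjustment 0% of all probe sets were called between days 4 and 7, 0.0117% between days 7 and 14 and 3.27% between days 4 and 14.

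Those calls changed with the scaling and with the arrays kept. With all 6 arrays, the CfaAffx probe set of ACP5 was called between days 4 and 7 after quantile normalization (3.88, limma adjusted p = 0.0307) and after 90th percentile scaling (3.75, adjusted p = 0.0182). Between days 7 and 14 it was called after both as well (-3.62 and -3.53, adjusted p = 0.0354 and 0.0218), and without the day 4 pair (-3.75, adjusted p = 0.00717). The CfaAffx probe set of CTSK was called between days 4 and 14 after both scalings (-1.92 and -1.84, adjusted p = 0.0456 and 0.0338). So were 1419 and 1839 of 25608 probe sets. CTSK on Cfa was positive there and not called (0.33 and 0.99, limma adjusted p = 0.628 and 0.185). The CfaAffx probe set of CTSK was also called between days 7 and 14 after 90th percentile scaling (-2.95, adjusted p = 0.0455) and without the day 4 pair (-3.17, adjusted p = 0.0306). These contrasts include the beta-TCP day 14 array, which stood apart. ACP5 on Cfa was called between days 4 and 14 without the day 7 pair (2.11, adjusted p = 0.0328), as were 858 of 25608 probe sets. On CfaAffx ACP5 had 0.27 for those days in the fit of all 6 arrays. Fits without a day pair have 1 residual degree of freedom. The most member calls came without the beta-TCP day 14 array. The fit without it was chosen after seeing the data and has 1 residual degree of freedom. In it all 9 member estimates for day 7 minus day 4, averaged over treatments, were positive. Of these, 6 were called higher, where 5.05% of all probe sets were. ACP5 rose by 4.02 ± 0.37 on CfaAffx (SE, limma adjusted p = 5.62e-05) and by 3.79 ± 0.38 on Cfa (adjusted p = 6.64e-05), ATP6V0D2 by 2.02 ± 0.34 on Cfa (adjusted p = 0.00202), and CTSK by 1.39 ± 0.37 on CfaAffx (adjusted p = 0.0325). Neither TCIRG1 probe set passed (1.03 and 0.95, adjusted p = 0.0698 and 0.0993), nor did CTSK on Cfa (0.86, adjusted p = 0.132). From day 7 to day 14, 7 of 9 were called lower (0.789% of all probe sets were called lower). None of the 9 estimates was positive. ACP5 fell by 3.20 on CfaAffx (adjusted p = 0.0044) and by 2.85 on Cfa (adjusted p = 0.0104), and ATP6V0D2 fell by 2.11 to 3.11 on its 3 probe sets. Between days 4 and 14, 1 of 9 was called lower, where 9.85% of all probe sets were called in either direction. It was the second CfaAffx probe set of ATP6V0D2 (-1.78, limma adjusted p = 0.0207). Of the 9 estimates for those days, 3 were positive. Day 14 is then the control array alone, which is assumed to vary like the others, and its values are on the other deposited scale. The beta-TCP average had no member called in that fit either (0.422% of all probe sets were), and its lowest estimates were those of TCIRG1 (-0.75 ± 0.33 and -0.70 ± 0.33, adjusted p = 0.435 and 0.501, limma).

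The remaining genes of the pathway were read from lists, with 1 probe set per gene, the one with the highest mean. Lists therefore mix Cfa and CfaAffx probe sets, and the shares and medians of all genes are over both types. At day 14 the types differed, with a median of -0.31 on strongly read Cfa probe sets and -0.91 on strongly read CfaAffx ones. Of 19 V-ATPase subunit genes other than the members, 16 were past the filter. The V-ATPase is the proton pump that TCIRG1 and ATP6V0D2 belong to, and it also acidifies lysosomes of other cells. At day 7, 15 of the 16 were lower with beta-TCP, with a median of -0.81 where all 10530 genes had -0.08. At least 2-fold lower were 4 (3.44% of all genes), ATP6AP1 (-1.40), ATP6V0B (-1.24), ATP6V1D (-1.05) and ATP6V0C (-1.01). At day 14, 12 of 16 were higher, with a median of 0.52 against -0.23 for all genes, and ATP6V1F alone was at least 2-fold higher (1.72; 3.47% of all genes). At day 4, 12 of 16 were lower, with a median of -0.25 against 0.17, and ATP6V1C2 alone was at least 2-fold lower (-2.18; 3.1%). In control sites the 16 genes had a median of 0.82 from day 4 to day 7 and of -1.39 from day 7 to day 14, where 16 of 16 were lower.

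Genes of the ruffled border, of fusion and of attachment lay on both sides of control. Of 14, 12 were on the array and all 12 past the filter. At day 7 their median was -0.60, with 8 lower and 4 higher. MMP9, which encodes gelatinase B, was the 1 gene at least 2-fold lower (-1.66, where 3.44% of all genes were). CA2, the carbonic anhydrase that supplies protons to the pump, lay at -0.98 and SRC, a kinase of the osteoclast cytoskeleton, at -0.80. At day 14, 3 were at least 2-fold higher (3.47% of all genes), MMP9 (1.41), the sorting nexin gene SNX10 (1.37) and PLEKHM1 (1.25), a gene of vesicle trafficking. Another 4 were at least 2-fold lower (15.4% of all genes), the chloride channel partner OSTM1 (-1.87), MMP14 (-1.48), the integrin chain ITGAV (-1.13) and RAB7A (-1.05). OSTM1 and SNX10 were read on CfaAffx probe sets, of which 11.1% were at least 2-fold lower and 3.31% higher that day. At day 4 the lowest were SNX10 (-1.21) and PLEKHM1 (-1.08) and the highest was CA2 (0.84).

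**Figure D4:**
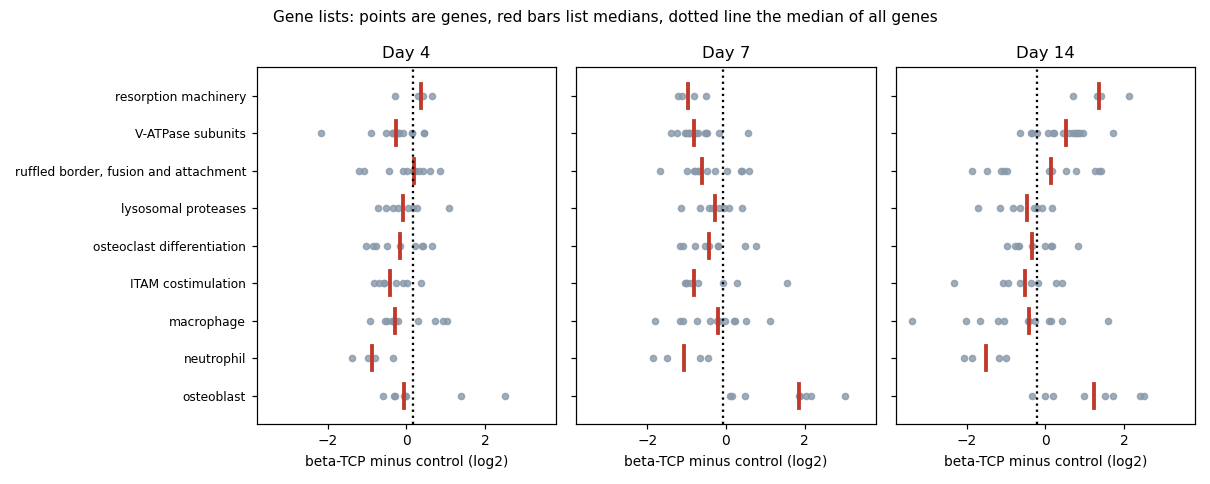
Beta-TCP minus control (log2 of level + 1) on each day for genes of 9 lists, with 1 array per group. Grey points are single genes past the filter, read on the probe set with the highest mean, red bars are list medians and the dotted line is the median of all genes. At day 7 the resorption and V-ATPase bars lie left of the dotted line and the osteoblast bar lies right of it at 1.86, and at day 14 all 3 lie right of it.

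Other lysosomal proteases were mostly lower with beta-TCP at days 7 and 14. Of 8 measured, 1 was at least 2-fold lower at day 7, CTSD (-1.13, where 3.44% of all genes were), and the list median was -0.27 against -0.08 for all genes. At day 14, 7 of 8 were lower with a median of -0.47 against -0.23 for all genes. All 8 were strongly read, and strongly read probe sets as a whole had a median of -0.45 that day, near that of the list. CTSC (-1.72) and CTSS (-1.16) were at least 2-fold lower, on a day when 15.4% of all genes were, and CTSD lay at 0.16. CTSC was read on a CfaAffx probe set, and 45.3% of the strongly read ones of that type were at least 2-fold lower. At day 4 the median was -0.09 and CTSC was at least 2-fold higher (1.09, where 4.52% of all genes were). No test of the difference between lists was made.

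The osteoclast differentiation list had no gene at least 2-fold higher with beta-TCP on any day. Of all genes 4.52%, 2.96% and 3.47% were at days 4, 7 and 14. With shares that low, none among so few genes says little about the list. It does not separate genes by the direction of their effect on osteoclast formation. Of its 14 genes 9 were past the filter, with medians of -0.16, -0.42 and -0.34 at days 4, 7 and 14. TNFSF11, the gene of RANKL, the cytokine that induces osteoclasts, read 2.58 array medians at beta-TCP day 4 against 1.30 at control day 4, 2.38 at beta-TCP day 7 against 6.19 at control day 7, and 0.435 at beta-TCP day 14 against 1.30 at control day 14. Its difference at day 7 was -1.09, next to BCL6 at -1.16, the other gene at least 2-fold lower (3.44% of all genes). NFATC1, known as the main transcription factor of osteoclasts, did not pass the filter and lay at or below 0.10 array medians on all 6 arrays. Of 8 genes of ITAM costimulation, the pathway through which OSCAR signals, 2 were at least 2-fold lower at day 7, TYROBP (-1.03) and FCER1G (-1.02), where 3.44% of all genes were, and TREM2 was at least 2-fold higher (1.55, where 2.96% of all genes were). SIGLEC15, a receptor of late osteoclasts, read 1.96 array medians at beta-TCP day 7 against 4.86 at control day 7 and lay below 0.5 on the other 4 arrays. The list medians were -0.42, -0.81 and -0.51 at days 4, 7 and 14, where those of all genes were 0.17, -0.08 and -0.23. At day 14 SYK (-2.34) and FCER1G (-1.07) were at least 2-fold lower, as were 15.4% of all genes. Both were read on CfaAffx probe sets, of which 11.1% of all and 45.3% of the strongly read ones were.

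Macrophages share the lineage and many of these genes, and part of their markers differed in the same direction as the members. All 12 macrophage markers were past the filter and none was at 0. Their summed level was 237 array medians at beta-TCP day 4 against 285 at control day 4, 313 at beta-TCP day 7 against 543 at control day 7, and 329 at beta-TCP day 14 against 297 at control day 14. These sums follow CD68, a lysosomal protein of macrophages and osteoclasts, with 154 array medians at beta-TCP day 7 against 347 at control day 7 and 214 at beta-TCP day 14 against 70.5 at control day 14. On the log2 scale, 3 of 12 markers were at least 2-fold lower at day 7 (3.44% of all genes), MARCO (-1.79), CD68 (-1.17) and CD14 (-1.10). MSR1 was at least 2-fold higher (1.12; 2.96% of all genes). At day 14, 8 of 12 were lower, 5 of them at least 2-fold, on a day when 15.4% of all genes were. CD68 alone was at least 2-fold higher (1.59; 3.47% of all genes). CD163, MRC1, AIF1 and MARCO differed by -1.06 to -3.39 at day 14, while C1QA, C1QB and C1QC lay between -0.41 and 0.43. The list median was -0.29, -0.21 and -0.43 at days 4, 7 and 14, where that of all genes was 0.17, -0.08 and -0.23. Their part in the members' differences was not tested.

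Most osteoblast markers were higher and neutrophil markers lower with beta-TCP at days 7 and 14. The 8 measured osteoblast markers had medians of -0.05, 1.86 and 1.24 at days 4, 7 and 14, where all genes had 0.17, -0.08 and -0.23. At day 7 they were higher with beta-TCP in 8 of 8 genes. At day 14, 6 were higher and 2 lower, RUNX2 (-0.34) and ALPL (-0.01). The 4 neutrophil markers past the filter, of 5 on the array, had medians of -0.88, -1.07 and -1.52 and were lower on all 3 days. All were read on CfaAffx probe sets, and strongly read ones of that type had a day 14 median of -0.91. The summed level of the 5 was 968 array medians at beta-TCP day 7 against 1436 at control day 7. The part of either cell type in the members' differences was not tested.

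The members were also compared with each other and with all named genes over the 6 arrays, as a description, since 1 array stands apart and all share the day 14 scale. On Cfa probe sets ACP5 and ATP6V0D2 had Pearson's r = 0.98, ACP5 and the brighter TCIRG1 probe set 0.85, and ACP5 and CTSK 0.84. The Cfa and CfaAffx probe sets of CTSK had r = -0.19, those of ACP5 0.75, and the Cfa and brightest CfaAffx probe sets of ATP6V0D2 0.85. The genes named next have the highest r among up to 5418 Cfa or up to 6029 CfaAffx candidates. Over 6 arrays, values this high can arise by chance among so many. Those most like ATP6V0D2 on Cfa were MMP9 (r = 0.985), TPPP3, ATP6V1E1 (0.982), RASA3 and TYR. CD68 (r = 0.980) was among the 5 most like TCIRG1, with CLIP4, NAT14, ABCB4 and TBC1D10A. For ACP5 they were COQ8B (0.993), FILIP1L, CD59, COL15A1 and LETM2, and for CTSK ARHGDIB (0.998), HINFP, ENG, PACSIN3 and RNF214. On CfaAffx they were PROM1 (0.984), SLCO3A1, FAM20B, STARD3 and SELP for ACP5, STK11 (0.996), KCNE3, ABCF1, JCHAIN and DLST for CTSK, and FOXS1 (0.976), BCAR3, KIAA0930, DDRGK1 and SLC37A2 for ATP6V0D2. No gene was named for the same member on both types, but 5 names out of so many candidates per type cannot compare the types.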

How the data were processed

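RNA of 6 bone specimens, 1 per group, was labelled from 100 ng each, per the labels' protocols. The deposited table gives a value for each of 42860 probe sets. Read from the values, those the authors deposited for days 4 and 7 are a ratio to the array's own median, with the lowest at 0.01. Those the authors deposited for day 14 are an undivided intensity, with medians of 6.2 (beta-TCP) and 12.0 (control). The software and algorithm behind them are not given in these sources. The number of arrays, 1 per group, limits the precision.

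Each array was divided by its median and log2(value + 1) was taken, which understates differences of low genes. The platform annotation gives 1 gene for 29254 probe sets, several for 439 and none for 13167. Of the 29254, 27680 matched RefSeq's gene table of UU_Cfam_GSD_1.0 by gene ID, used for names. The filter kept probe sets whose mean reached the 40th percentile (25608). It left out 90 pairs with names ending in _a_at and _at, since all 17 pairs far apart on both sets of days (over 2 log2 units) were reversed at day 14. The fit used limma 3.58.1 in R 4.3.3 (2 residual degrees of freedom) and was tested on simulated data.

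Members, lists and the rule for named genes were chosen with earlier results of these data known. The rule named at most the 3 highest and 3 lowest genes of a list on a day. For likeness it named the 5 genes with the highest r among probe sets of the same type spanning at least 1 log2 unit, passing over names that are identifiers. ATP6V0C, RAB7A, NFATC1 and the single markers of cell types were named outside it, after their values were seen. Strongly read probe sets, with a mean log2 of at least 3, were a background added after seeing the data.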

Additional observations from a re-analysis of the deposited data

Results flagged for a closer look

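Member probe sets that were at least 2-fold higher with beta-TCP on one day and at least 2-fold lower on another are given here; with 1 array per group that difference between days was not tested. ACP5 on its Cfa probe set had -1.10 at day 7 and 2.12 at day 14 (log2, beta-TCP minus control). TCIRG1 on its brighter probe set had -1.21 at day 7 and 1.31 at day 14. CTSK on its CfaAffx probe set had 1.01 at day 4 and -1.20 at day 14. All 3 pairs include the beta-TCP day 14 array, which stood apart.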

How the results depend on the processing

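The model set beta-TCP against control within each day, but no pairing by dog could be made, since the labels give no replicate numbers and do not say which specimens share a dog. The median over the 11 member probe sets, beta-TCP minus control, kept its sign and stayed under 2-fold at day 4 in every alternative run. At day 7 (-0.66) it kept its sign, and Cfa probe sets alone gave -1.10. At day 14 (0.90) it was 1.18 with quantile normalization, 1.27 with the 90th percentile scaling, 1.31 with Cfa probe sets alone, 1.31 with the brightest probe set per gene, and -0.00206 with CfaAffx probe sets alone. Between days 7 and 14 in beta-TCP sites the median turned from -0.19 to 0.18 with the 90th percentile scaling. Between days 4 and 14 in control sites it turned from 0.09 to -0.22 with quantile normalization and -0.20 with the 90th percentile scaling. Of 198 single differences between beta-TCP and control under alternatives, 176 kept sign and side of 2-fold, 15 fell under it, 7 passed it and none changed sign. Of 264 between days, 227 kept both, 17 fell under 2-fold, 11 passed it and 9, none of them 2-fold, changed sign. Of 342 limma estimates for the members, 291 kept sign and call, 30 became called and 21, none called on either side, changed sign.

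The number of probe sets called for the beta-TCP average (0 in limma, 1057 at an unadjusted p under 0.05) was 3 without the day 4 pair and 108 without the day 14 pair or the beta-TCP day 14 array. For day 7 minus day 4 (0, with 2814 at an unadjusted p under 0.05) it was 43 with quantile normalization, 75 with the 90th percentile scaling, 25 with Cfa alone and 1880 without the day 14 pair or the beta-TCP day 14 array. For day 14 minus day 7 (3) it was 0 without a filter, with a pseudocount of 16 or with CfaAffx alone, 15 with quantile normalization, 22 with the 90th percentile scaling, 5 with each type divided by its own median, 9 with Cfa alone, 23 without the day 4 pair and 298 without the beta-TCP day 14 array. For day 14 minus day 4 (837) it was 0 without a filter or with a pseudocount of 16, 1419 with quantile normalization, 1839 with the 90th percentile scaling, 323 with a pseudocount of 0.25, 276 with CfaAffx alone and 2523 without the beta-TCP day 14 array. The cause was not tested. Without detection calls, levels near or below the array median, such as those of CALCR, have no known distance from background.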

Other observations

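Markers of the other cell types that a drilled mandibular specimen can hold were summed over the genes on the array. Fibroblast markers (6 of 6 past the filter) summed to 1561 array medians at beta-TCP day 4 against 968 at control day 4, 2090.4 at beta-TCP day 7 against 2043 at control day 7, and 3175 at beta-TCP day 14 against 3253 at control day 14. Endothelial markers (5 of 5) summed to 131 against 61.7 at day 4, 231 against 333 at day 7 and 310 against 224 at day 14, beta-TCP against control.

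Markers of stratified epithelium (5 past the filter of 6 on the array) summed to 3.78 array medians at beta-TCP day 4 against 47.8 at control day 4, and to at most 5.79 on the other 4 arrays. B and T cell markers (4 of 6) summed to 19.4 against 14.2, 13.3 against 27.4 and 10.3 against 15.6 at days 4, 7 and 14. The 1 erythroid marker on the array read 2.68 against 3.47, 1.43 against 4.31 and 3.85 against 1.43 on those days, beta-TCP against control.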
